A study of Mus musculus with 24 samples.

Results

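Homer1, Bdnf, Nptx2, Dusp4, Cirbp and Rbm3 are 6 mouse genes whose transcripts are known to respond to wakefulness or to brain temperature. They were taken by name, with earlier results of these data known. Each was measured by its probe set of highest mean among those annotated to exactly 1 symbol. All 6 were found among 19938 genes with such a probe set, through 8 probe sets, and all 6 were among the 11963 genes that passed the filter on low values. The tissue was the mediobasal hypothalamus of mice of the strain given as C57BL76J, and RNA was measured on 24 microarrays. Sleep-restricted mice (TSR) were kept awake by gentle handling between ZT0 and ZT6 on 5 days in a row, slept freely for 2 days, and were then restricted for another 5 days. Control mice (CON) were left undisturbed over the same period. Each condition had 3 mice at each of ZT1, ZT7, ZT13 and ZT19. ZT is zeitgeber time, in hours; the array labels give only the bare time number, which was read as ZT because the handling is stated in it. The labels name no engineered allele. They do not say on which day of the protocol mice were sampled, nor whether mice taken at ZT1 and ZT7 were handled that day.

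The longer the brain stays awake, the more transcript accumulates from a set of activity-driven genes, and several of them fall again during sleep. Homer1, whose short form Homer1a uncouples metabotropic glutamate receptors from their scaffold, is the best known of these in the rodent forebrain. Cirbp and Rbm3 encode RNA-binding proteins whose transcripts become more abundant when cells cool by a few degrees. Brain temperature falls in sleep and climbs in wakefulness, so both follow the rest and activity cycle. Bdnf encodes a neurotrophin that signals through the receptor TrkB, Nptx2 encodes a secreted pentraxin that gathers AMPA receptors at synapses, and Dusp4 encodes a nuclear phosphatase that inactivates MAP kinases.

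Values are log2 signals, so that a difference of 1 is a doubling. On 4 arrays the interquartile range of the signals lay between 2.12 and 2.25, against 2.96 to 3.28 on the other 20. These arrays also ranked the probe sets differently from the rest, with median Spearman correlations of 0.836 to 0.882, against 0.976 to 0.986. They are TSR ZT1 replicate 3, TSR ZT13 replicate 2, and CON ZT19 replicates 2 and 3, and they are called the narrow arrays here. Results are therefore given over all 24 arrays and over the other 20, in which TSR at ZT1 and ZT13 had 2 arrays each and CON at ZT19 had 1. The median residual SD over all genes tested was 0.361 with 24 arrays and 0.111 with 20. A gene is said to rise or fall where limma's moderated test, adjusted by the Benjamini-Hochberg method over all 11963 genes, gave an adjusted p under 0.05, and the set of arrays is named each time. Among the markers of the labelled tissue, Npy, Cartpt, Kiss1, Tac2, Ghrh, Fezf1 and Gpr50 passed the filter, and Pomc, Nr5a1, Nkx2-1 and Rax lay under it. In bulk tissue, a lower number of cells of a type and less RNA per cell cannot be told apart.

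**Figure D1:**
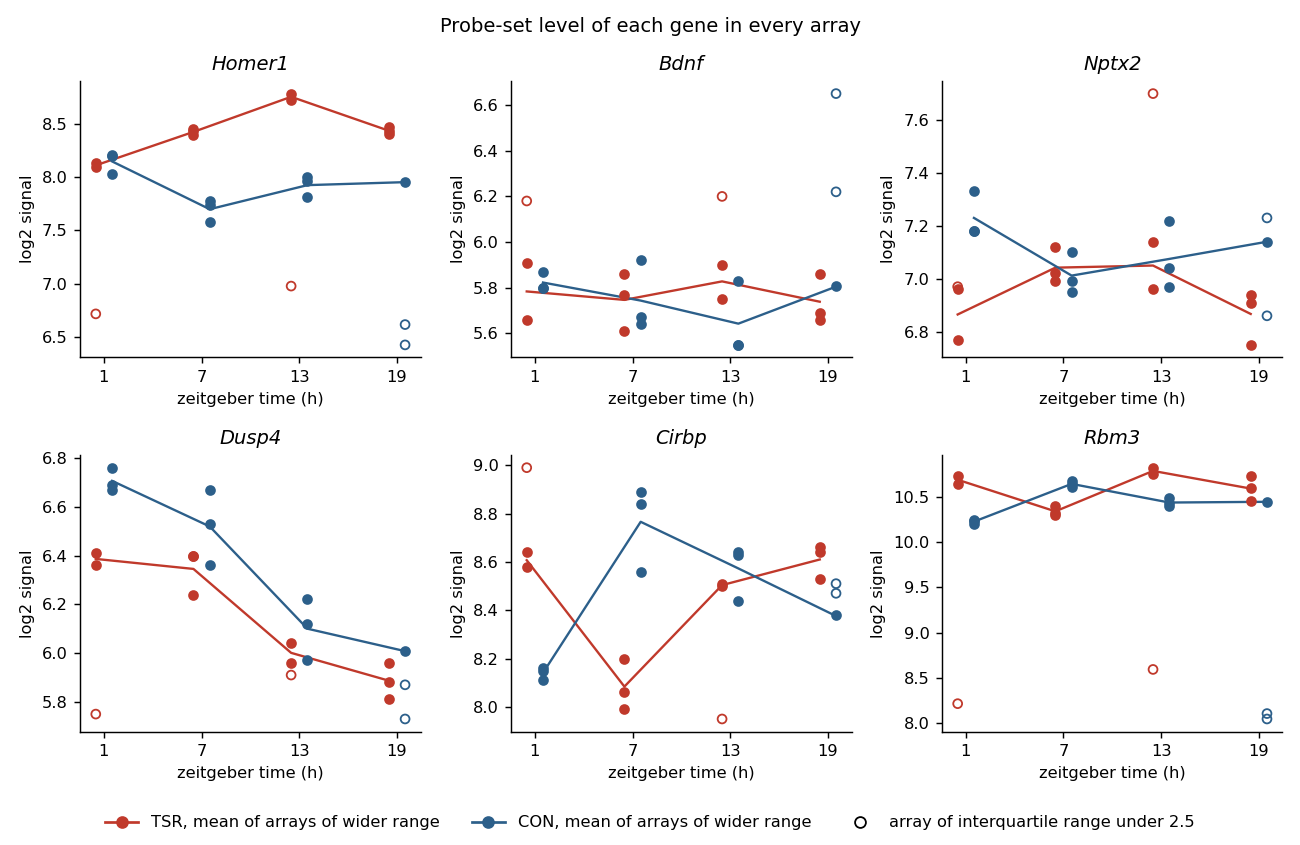
Log2 signal of each gene (vertical axis) against zeitgeber time (horizontal axis) in TSR (red, left) and CON (blue, right); each point is 1 array, open points are the 4 arrays of interquartile range under 2.5, and lines join the means of the other arrays. Homer1 was higher in TSR at ZT7, ZT13 and ZT19 in the 20 arrays, while Cirbp and Rbm3 were higher in TSR at ZT1 and lower at ZT7.

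The 2 promoters below are shown because Homer1 and Cirbp stand for the waking-driven and the temperature-driven genes. Of the 6 genes, 3 had promoter windows in the RefSeq table used (build GRCm38.p6): Homer1, Bdnf and Cirbp. The 250 bases before an annotated start are printed 5′ to 3′ on the plus strand, from chr13:93303507-93303756 for Homer1 and chr10:80167589-80167838 for Cirbp. Capitals mark TGACG, the core of the cAMP response element bound by CREB, in Homer1, and TCCCCGCC, a mild cold response element known from mouse Cirbp, in Cirbp.
Homer1: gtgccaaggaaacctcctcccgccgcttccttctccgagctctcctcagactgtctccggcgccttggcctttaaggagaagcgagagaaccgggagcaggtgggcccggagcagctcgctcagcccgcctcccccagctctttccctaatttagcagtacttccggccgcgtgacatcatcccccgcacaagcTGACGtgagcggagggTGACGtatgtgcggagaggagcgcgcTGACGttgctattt
Cirbp: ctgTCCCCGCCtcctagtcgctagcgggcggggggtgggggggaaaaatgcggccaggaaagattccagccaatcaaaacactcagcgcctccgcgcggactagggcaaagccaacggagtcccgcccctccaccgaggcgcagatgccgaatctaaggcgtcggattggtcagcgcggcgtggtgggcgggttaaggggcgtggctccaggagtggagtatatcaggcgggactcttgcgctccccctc
Both genes have 2 windows in the table, and the one printed is that of the lower start position. It is also the one that holds the motif: the other Homer1 window held TGACG 0 times and the other Cirbp window held TCCCCGCC 0 times. The printed Cirbp window lies within the span of the gene, 80165990 to 80172786. The printed Homer1 window held TGACG 3 times, between 56 and 14 bases before the start. Both strands were searched, and 17.8% of all 32851 promoter windows held this core at least once, while 0.688% held it 3 times or more. The full element, TGACGTCA, which contains the core, was in neither Homer1 window, in none of the 7 Bdnf windows and in neither Cirbp window; 1.55% of all windows held it. The printed Cirbp window held TCCCCGCC once, 247 bases before the start, and 4.64% of all windows held it on either strand. Neither Homer1 window and none of the Bdnf windows held TCCCCGCC. These matches describe the letters only, and binding was not measured.

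Homer1 rose in TSR mice at 3 of the 4 times in the 20 arrays. It lies on chromosome 13 (GRCm38.p6, 93303757 to 93405129, plus strand), and its probe set is 10406626. This probe set is annotated to the gene and does not by itself tell the short form Homer1a from the long forms. At ZT1, early in the daily handling window, Homer1 read 8.13, 8.09 and 6.72 in TSR mice, the last on a narrow array, against 8.03, 8.21 and 8.20 in CON mice. At ZT7 it read 8.43, 8.39 and 8.45 in TSR mice, against 7.78, 7.74 and 7.58 in CON mice. At ZT13 it read 8.78, 6.98 and 8.72 in TSR mice, the middle value on a narrow array, against 7.81, 7.96 and 8.0 in CON mice. At ZT19 it read 8.47, 8.43 and 8.40 in TSR mice, against 7.95, 6.43 and 6.62 in CON mice, the last 2 on narrow arrays. Every narrow array was low for Homer1, in both conditions, and no other array read under 7.58. Apart from these, the TSR and CON readings overlapped at ZT1 and stood clear of each other at ZT7, ZT13 and ZT19. In the 20 arrays 36.1%, 62.4% and 79.6% of all genes tested stood clear at those later times.

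Without the narrow arrays, Homer1 rose in TSR mice at ZT7 by 0.72 ± 0.07 log2 units (SE), a 1.65-fold difference, with a limma adjusted p of 3.644e-07. It rose at ZT13 by 0.83 ± 0.08, or 1.77-fold, with a limma adjusted p of 2.171e-07. At ZT19 it rose by 0.48 ± 0.10, or 1.40-fold, with a limma adjusted p of 0.002615; the single CON array has no spread of its own, and that of the other groups stands in for it. At ZT1 the difference was -0.04 ± 0.08. Averaged over the 4 times, Homer1 was 0.50 ± 0.04 higher in TSR mice, with a limma adjusted p of 1.428e-08. The size of the difference depended on the time of day (limma F test, adjusted p = 5.502e-05).

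With all 24 arrays the ZT7 difference was the same 0.72, since no narrow array lies in either ZT7 group, but its SE was 0.42 and its limma adjusted p was 1. Fitting only the 6 arrays of ZT7 gave a limma adjusted p of 0.000264. At ZT19 the 24-array difference was 1.43 ± 0.42 with a limma adjusted p of 0.0206, and it rests on the 2 narrow CON arrays. The median difference over all genes tested was 0.59 there, against 0.08 in the 20 arrays. Over all probe sets, including those under the filter, these 2 arrays had higher medians, 6.23 and 6.20, against 5.95 on CON ZT19 replicate 1. At ZT13 the 24-array difference was 0.24 ± 0.42 and it turned negative when either of the other TSR arrays of that time was left out. The 24-array mean over the 4 times, 0.47 ± 0.21, had a limma adjusted p of 0.2644, and 0.02626 without TSR ZT13 replicate 2.

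The order of the 8 groups in the 20 arrays put all 3 later TSR groups at the top. TSR at ZT13 averaged 8.75 (n = 2) and stood above TSR at ZT19 (8.43 ± 0.04 SD, n = 3) and TSR at ZT7 (8.42 ± 0.03 SD, n = 3), which overlapped each other. CON at ZT1 (8.15 ± 0.10 SD, n = 3) and TSR at ZT1 (8.11, n = 2) came next and overlapped. CON at ZT19 (7.95, n = 1) and CON at ZT13 (7.92 ± 0.10 SD, n = 3) overlapped, and CON at ZT7 was lowest, at 7.70 ± 0.11 (SD, n = 3). Homer1 thus had its lowest CON level at ZT7, shortly after the handling window closes, and there all TSR mice read above every CON mouse of any time. Homer1 changed with time of day in both conditions in the 20 arrays, with limma F-test adjusted p-values of 0.0003044 in TSR and 0.0009558 in CON.

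Markers of several tissues differed between conditions where Homer1 did, and some also differed at ZT1, where Homer1 did not pass the test. The mean of 9 tested markers of cortex and hippocampus ran from 7.33 to 7.34 in TSR mice at ZT7, against 7.07 to 7.12 in CON mice. At ZT13 it was 7.63 and 7.72 on the 2 TSR arrays, against 7.27 to 7.29 in CON mice. At ZT1, where Homer1 did not pass the test, it was 7.21 and 7.26 in TSR mice, against 7.24 to 7.33 in CON mice. Over the 20 arrays the Pearson correlation of Homer1 with this mean was 0.86; the points share their groups, and the value is a description. The marker list itself was uneven: on average over the times, 3 of the 9 rose and 2 fell in the 20 arrays, where 33.5% of all genes tested rose and 22.8% fell. Slc17a7, the cortical vesicular glutamate transporter, rose by 0.84 ± 0.06, and Mef2c, a neuronal transcription factor, by 0.81 ± 0.04, while Camk2a, a synaptic kinase, fell by 0.42 ± 0.04. Neurod6, another cortical marker, had a median of 2.28 and lay at the 1.2 percentile of mean levels. The mean of 9 markers of striatum and basal forebrain ran from 8.09 to 8.15 in TSR mice at ZT7, against 7.03 to 7.08 in CON mice. It was higher in TSR mice at ZT1 as well, at 7.79 and 7.80, against 7.59 to 7.71 in CON mice. The mean of 5 thalamus markers ran from 7.38 to 7.49 in TSR mice at ZT7, against 6.97 to 7.10 in CON mice. At ZT13 it was 7.40 and 7.51 in TSR mice, against 7.21 to 7.26 in CON mice, and at ZT19 it ran from 7.62 to 7.69 in TSR mice, against 7.08 on the single CON array. At ZT1 the thalamus mean was lower in TSR mice, at 7.23 and 7.27, against 7.42 to 7.45 in CON mice. The mean of the endothelium markers was higher in TSR mice at ZT1, at 6.72 and 6.75, against 6.54 to 6.69 in CON mice. Over the 20 arrays Homer1 correlated at 0.80 with the thalamus mean, at 0.69 with that of 6 endothelium markers, at 0.68 with striatum and basal forebrain, at -0.61 with the suprachiasmatic nucleus and at -0.56 with the mediobasal hypothalamus. The part of these markers in the Homer1 difference was not tested.

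**Figure D2:**
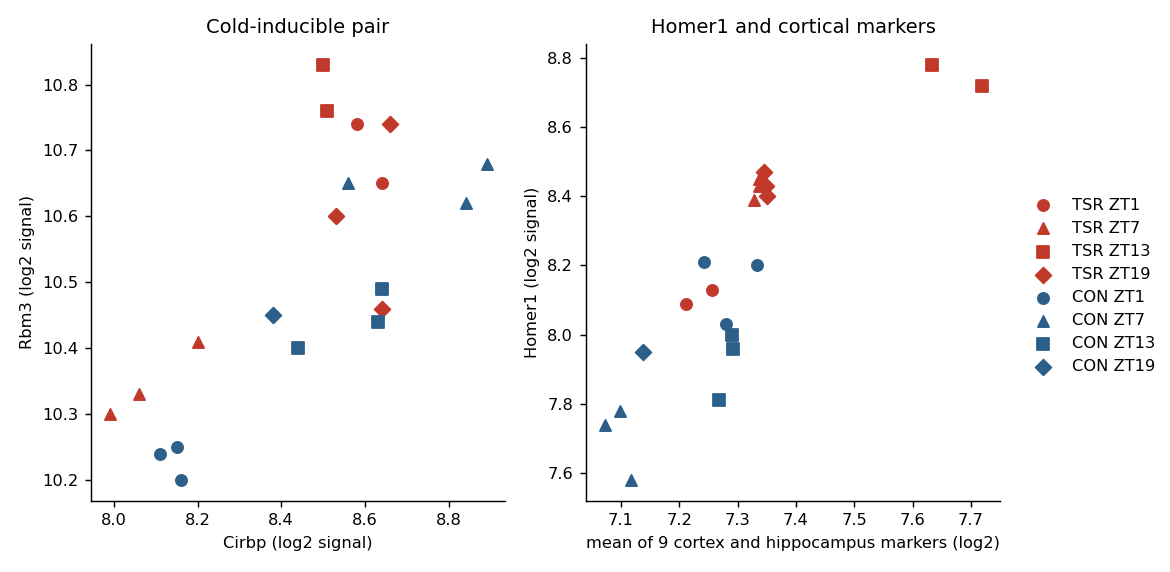
Left, Rbm3 against Cirbp (log2 signals); right, Homer1 against the mean of 9 cortex and hippocampus markers (log2), each point 1 of the 20 arrays, TSR in red and CON in blue, with symbols for zeitgeber time. Rbm3 and Cirbp were both low in TSR at ZT7 and in CON at ZT1, and Homer1 and the marker mean were highest in TSR at ZT13.

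The 4 genes whose pattern was most like that of Homer1 over the 20 arrays were Mef2c (r = 0.959), Chn1 (r = 0.954), Rps6ka3 (r = 0.952) and Erbb4 (r = 0.951). They were the highest of 11931 genes without a missing value. Chn1 encodes a Rac GTPase-activating protein, Rps6ka3 the kinase RSK2, and Erbb4 a neuregulin receptor.

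Homer1 binds Shank proteins and metabotropic glutamate receptors in the postsynaptic scaffold. Of 8 tested scaffold partners, 1 rose and 4 fell on average over the 4 times in the 20 arrays, with a median of -0.19 against 0.03 over all genes. Over all genes tested 33.5% rose and 22.8% fell in that comparison, 56.3% in all. Dlg4, which encodes PSD-95, fell by 0.54 ± 0.04. Shank1 fell by 0.26 ± 0.06 and Shank3 by 0.24 ± 0.05, and among the single times both passed the test at ZT13 and at no other. At ZT13 Shank1 fell by 0.79 ± 0.10 (limma adjusted p = 7.37e-06), at the time of the highest Homer1 level. With 24 arrays, 0 of the 8 passed the test on average.

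Cirbp and Rbm3 changed direction between ZT1 and ZT7. Cirbp lies on chromosome 10 (80165990 to 80172786) and is read by probe set 10364712. At ZT1 Cirbp read 8.64, 8.58 and 8.99 in TSR mice, the last on a narrow array, against 8.16, 8.15 and 8.11 in CON mice. At ZT7 it read 7.99, 8.06 and 8.20 in TSR mice, against 8.84, 8.89 and 8.56 in CON mice. The groups stood apart at both times, with TSR above CON at ZT1 and below it at ZT7. At ZT13 Cirbp read 8.50, 7.95 and 8.51 in TSR mice, the middle value on a narrow array, against 8.44, 8.63 and 8.64 in CON mice. At ZT19 it read 8.66, 8.53 and 8.64 in TSR mice, against 8.38, 8.47 and 8.51 in CON mice, the last 2 on narrow arrays.

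Without the narrow arrays, Cirbp was higher in TSR mice at ZT1 by 0.47 ± 0.09, or 1.38-fold (limma adjusted p = 0.003113). Without TSR ZT1 replicate 1 as well, this p was 0.05444. At ZT7 Cirbp fell by 0.68 ± 0.08 in TSR mice, to 0.623 of the CON level (limma adjusted p = 4.4e-06). The differences of -0.07 ± 0.09 at ZT13 and 0.23 ± 0.12 at ZT19 did not pass. Since the signs differ, the average over the 4 times was -0.01 ± 0.05, and the test of whether the difference varied with time gave a limma adjusted p of 1.152e-05. With 24 arrays the differences had the same signs at ZT1 (0.59 ± 0.18) and ZT7 (-0.68 ± 0.18), and neither passed, with limma adjusted p-values of 0.7457 and 0.1414. At ZT7 the fit of the 6 arrays of that time gave 0.00113.

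Rbm3 lies on the X chromosome (8138975 to 8145880). At ZT1 its probe set 10556113 read 10.65, 10.74 and 8.21 in TSR mice, the last on a narrow array, against 10.20, 10.25 and 10.24 in CON mice. At ZT7 it read 10.30, 10.33 and 10.41 in TSR mice, against 10.62, 10.68 and 10.65 in CON mice. At ZT13 it read 10.83, 8.59 and 10.76 in TSR mice, the middle value on a narrow array, against 10.40, 10.44 and 10.49 in CON mice. At ZT19 it read 10.74, 10.60 and 10.46 in TSR mice, against 10.45, 8.10 and 8.04 in CON mice, the last 2 on narrow arrays. All 4 narrow arrays read between 8.04 and 8.59, and the other 20 between 10.20 and 10.83. Without the narrow arrays, TSR and CON readings did not overlap at any of the 4 times. At ZT19, though, the lowest TSR array, at 10.46, stood against a single CON array at 10.45. From ZT1 to ZT19, 52.3%, 36.1%, 62.4% and 79.6% of all genes tested stood apart in these 20 arrays.

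In the 20 arrays Rbm3 rose in TSR mice at ZT1 by 0.47 ± 0.07 (limma adjusted p = 0.0002057) and at ZT13 by 0.35 ± 0.07 (limma adjusted p = 0.0002889). Between these times, at ZT7, it fell by 0.30 ± 0.06 (limma adjusted p = 0.0007169). At ZT19 the difference was 0.15 ± 0.08 and did not pass. The average over the 4 times was 0.17 ± 0.04 (limma adjusted p = 0.0005569), and the difference varied with time (limma adjusted p = 1.814e-05). With 24 arrays the sign was the other way at ZT1, at -0.36 ± 0.63, and at ZT13, at -0.38 ± 0.63, each through 1 narrow array. The 24-array rise at ZT19, 1.74 ± 0.63 with a limma adjusted p of 0.03168, rests on the narrow CON arrays.

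The other 2 Rbm3 probe sets, 10358454 and 10603469, gave the same picture without the narrow arrays. All pairs of the 3 probe sets correlated at 0.961 or more over the 20 arrays. At ZT1 their differences were 0.47 ± 0.08 and 0.39 ± 0.06, at ZT7 -0.33 ± 0.07 and -0.28 ± 0.06, and at ZT13 0.25 ± 0.08 and 0.22 ± 0.06, and each passed the test. The positions of these probe sets in the genome were not used here, so signal of the gene and of near-identical copies elsewhere cannot be told apart.

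Within CON mice the cold-inducible pair was lowest at ZT1 and highest at ZT7 in the 20 arrays, where CON at ZT19 is 1 array. Over all 24 arrays Rbm3 was lowest in CON mice at ZT19, at a mean of 8.86, through the narrow arrays. Cirbp averaged 8.14 ± 0.03 at ZT1 and 8.77 ± 0.18 at ZT7 in CON mice (SD, n = 3 each). Rbm3 averaged 10.23 ± 0.03 and 10.65 ± 0.03 at these times. Within TSR mice the order of these times was reversed in the 20 arrays. Cirbp averaged 8.61 at ZT1 (n = 2) and 8.08 ± 0.11 at ZT7 (SD, n = 3), and Rbm3 averaged 10.70 (n = 2) and 10.35 ± 0.06 (SD, n = 3). Over all 24 arrays Rbm3 averaged 9.87 in TSR mice at ZT1, under its ZT7 mean, so its order was not reversed. Time of day passed the limma F test for both genes in both conditions in the 20 arrays, with adjusted p-values of 0.000352 for Cirbp and 0.0003328 for Rbm3 in TSR, and 0.0001119 and 0.0003566 in CON. Over the 20 arrays Cirbp and Rbm3 correlated at r = 0.74 (Spearman 0.67), against 0.06 over all 24, where the narrow arrays were low for Rbm3 and from 7.95 to 8.99 for Cirbp. After subtraction of the group means the 20-array value was 0.27, so the likeness lay mainly between groups.

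The 8 groups ordered differently for the 2 cold-inducible genes. For Cirbp, CON at ZT7 was highest, TSR at ZT19, TSR at ZT1, CON at ZT13 and TSR at ZT13 followed, each overlapping the one before, then CON at ZT19 on 1 array, while TSR at ZT7 (8.08) and CON at ZT1 (8.14) were lowest and overlapped. For Rbm3, TSR at ZT13 (10.79, n = 2) was highest and clear of TSR at ZT1 (10.70), CON at ZT1 (10.23) was lowest, and TSR at ZT7 (10.35) was next, clear of CON at ZT1 and overlapping CON at ZT13 (10.44). The genes most like Cirbp over the 20 arrays were Nek10 (r = 0.934), Naaa (r = 0.883), Morc2a (r = 0.879) and Nme5 (r = 0.876). Those most like Rbm3 were Htra2 (r = 0.883), Ube2e2 (r = 0.882), Nfrkb (r = 0.854) and Greb1l (r = 0.829). Htra2 encodes a mitochondrial protease and Ube2e2 a ubiquitin-conjugating enzyme.

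A list of temperature and heat shock factor genes was read beside the cold-inducible pair. Its 10 tested genes include Rtn3 and Hsf2 besides chaperones and co-chaperones. Of 10 tested genes of this list, 6 rose in TSR mice at ZT7 in the 20 arrays and 0 fell, with a median of 0.23 against 0.00 over all genes, of which 12.9% rose and 13.8% fell. The mean of the list ran from 9.73 to 9.75 in TSR mice at ZT7, against 9.34 to 9.62 in CON mice. Dnaja1, a co-chaperone of HSP70, rose at ZT7 by 0.49 ± 0.10 (limma adjusted p = 0.00107). At ZT1, when the cold-inducible pair was high in TSR mice, 0 of the 10 rose and 1 fell, with a median of -0.16 against 0.04, where 6.95% of all genes rose and 3.1% fell. Dnaja1 differed by -0.22 ± 0.11 at ZT1, which did not pass. At ZT13, 4 rose and 1 fell, where 24% of all genes rose and 21.9% fell, and Rbm3 was higher in TSR mice as well. With 24 arrays 0 of the 10 passed at ZT7. The part of temperature in these differences was not tested.

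Markers of other cells also differed between conditions, in part at the same times as the cold-inducible pair. The mean of 5 tested genes of choroid plexus and plasma protein was 8.28 and 8.38 on the TSR arrays at ZT1, against 5.63 to 5.93 in CON mice. At ZT7 it ran from 6.75 to 6.87 in TSR mice, against 7.30 to 7.63 in CON mice, and at ZT13 it was 6.61 and 6.85 in TSR mice, against 5.86 to 5.99 in CON mice. These are the directions of Rbm3 at ZT1, ZT7 and ZT13 in the 20 arrays. At ZT19 the mean ran from 7.10 to 7.40 in TSR mice, against 5.25 on the single CON array of the 20. Rbm3 differed there by only 0.15 ± 0.08 and Cirbp by 0.23 ± 0.12. The correlation of the mean over the 20 arrays was 0.66 with Rbm3 and 0.49 with Cirbp. In the 20 arrays all 5 rose at ZT1, where 6.95% of all genes did, and 4 of the 5 fell at ZT7, where 13.8% did. With 24 arrays 4 rose at ZT1 and 0 fell at ZT7, where 0.0334% and 0.234% of all genes did. Among the 5 were Alb, serum albumin, at 4.17 ± 0.15 and -0.61 ± 0.13, and Ttr, transthyretin, at 1.39 ± 0.15 and -0.44 ± 0.13, in the 20 arrays. Kl and Folr1, also markers of the choroid plexus, lay under the filter. Markers of the suprachiasmatic nucleus were lower in TSR mice at ZT7, as Cirbp was. All 8 tested fell in the 20 arrays and 1 of 8 with 24 arrays, where 13.8% and 0.234% of all genes fell. Their mean ran from 7.10 to 7.16 in TSR mice, against 7.83 to 7.87 in CON mice. It was also lower in TSR mice at ZT1, where Cirbp was higher, at 7.26 and 7.28 against 7.38 to 7.52. At ZT13, where Cirbp did not pass the test, it was 7.14 and 7.16 against 7.68 to 7.72. Over the 20 arrays that mean correlated at 0.62 with Cirbp and 0.13 with Rbm3. Rbm3 correlated at -0.75 with the mean of 8 pan-neuronal markers, and at -0.60 with that of 3 microglia markers and with that of the mediobasal hypothalamus. For Cirbp the values were -0.46 with pan-neuronal markers, -0.64 with microglia and -0.56 with striatum and basal forebrain. The pan-neuronal mean was 10.885 and 10.852 in TSR mice at ZT1, against 10.972 to 10.997 in CON mice, and it overlapped at ZT7. The part of these markers in the differences of Cirbp and Rbm3 was not tested.

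**Figure D3:**
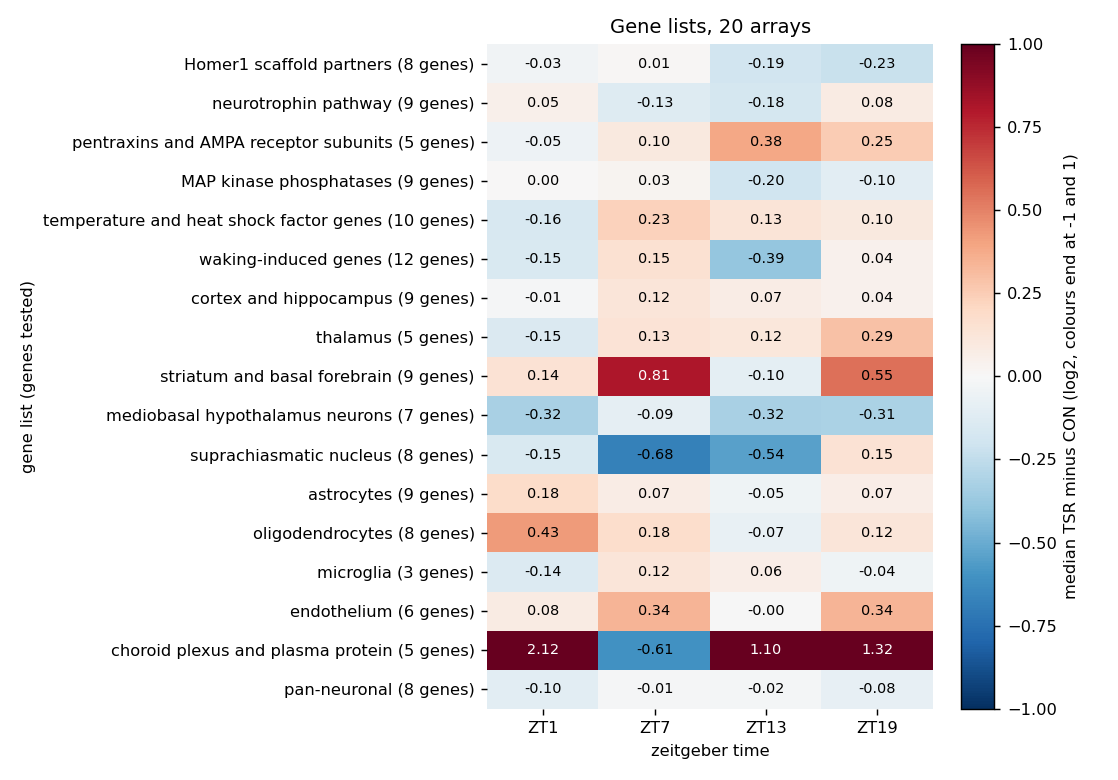
Median TSR minus CON difference (log2, colour and printed value) of each gene list (rows, with the number of genes tested) at each zeitgeber time (columns) in the 20 arrays. Temperature and heat shock factor genes had a median of 0.23 at ZT7 and -0.16 at ZT1, and choroid plexus and plasma protein genes of -0.61 and 2.12.

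Nptx2 and Dusp4 fell in TSR mice on average over the 4 times in the 20 arrays. Nptx2 (chromosome 5, 144545887 to 144557478; probe set 10527332) read 6.77, 6.96 and 6.97 in TSR mice at ZT1, the last on a narrow array, against 7.33, 7.18 and 7.18 in CON mice. These groups did not overlap. At ZT19 it read 6.91, 6.75 and 6.94 in TSR mice, against 7.14, 6.86 and 7.23 in CON mice, the last 2 on narrow arrays, and the groups overlapped. At ZT7 the 3 TSR arrays ran from 6.99 to 7.12, against 6.95 to 7.10 in CON mice. At ZT13 the TSR arrays ran from 6.96 to 7.70, the highest on a narrow array, against 6.97 to 7.22 in CON mice. In the 20 arrays Nptx2 fell at ZT1 by 0.37 ± 0.10, to 0.776 of the CON level (limma adjusted p = 0.02152). This call was lost without TSR ZT1 replicate 1, TSR ZT1 replicate 2 or CON ZT1 replicate 1, with limma adjusted p-values of 0.249, 0.05614 and 0.09166. On average over the 4 times Nptx2 fell by 0.16 ± 0.05 (limma adjusted p = 0.01284), and the other single times did not pass. With 24 arrays the difference was -0.33 ± 0.16 at ZT1 and -0.08 ± 0.08 on average. Neither passed, with limma adjusted p-values of 0.7457 and 0.6551.

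Nptx1, a second pentraxin of the same family, fell on average by 0.37 ± 0.05 in the 20 arrays. It passed the test at ZT7, ZT13 and ZT19, and not at ZT1. Among AMPA receptor subunits, the partners of pentraxins, Gria3 rose on average by 0.33 ± 0.06 and Gria2 by 0.27 ± 0.07. In all, 2 of 5 tested genes of this list rose and 1 fell on average in the 20 arrays, near the shares of all genes (33.5% and 22.8%), and 0 of 5 passed with 24 arrays. Nptx2 went with 2 marker lists over the 20 arrays, at 0.71 with the mean of 7 mediobasal hypothalamus markers and at -0.74 with the choroid plexus and plasma protein mean. The hypothalamus mean was 6.87 and 6.91 in TSR mice at ZT1, against 7.06 to 7.30 in CON mice. On average 1 of these 7 rose and 6 fell in the 20 arrays, where 33.5% of all genes rose and 22.8% fell. The part of these markers in the Nptx2 difference was not tested. The genes most like Nptx2 were G370120E05Rik (r = 0.842), Pkdcc (r = 0.822), Fcsk (r = 0.820) and Serp2 (r = 0.811).

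Dusp4 (chromosome 8, 34807610 to 34819894; probe set 10571312) was high at ZT1 and ZT7 and low at ZT13 and ZT19 in both conditions. At ZT1 it read 6.41, 6.36 and 5.75 in TSR mice, the last on a narrow array, against 6.67, 6.69 and 6.76 in CON mice. At ZT7 it read 6.40, 6.24 and 6.40 in TSR mice, against 6.53, 6.36 and 6.67 in CON mice. At ZT13 it read 5.96, 5.91 and 6.04 in TSR mice, the middle value on a narrow array, against 6.12, 5.97 and 6.22 in CON mice. The groups stood apart at ZT1 and overlapped at ZT7 and ZT13. At ZT19 it read 5.88, 5.96 and 5.81 in TSR mice, against 6.01, 5.87 and 5.73 in CON mice, the last 2 on narrow arrays. Time of day passed the limma F test in the 20 arrays in TSR (adjusted p = 0.00232) and in CON (adjusted p = 0.0001945). In CON it also passed with 24 arrays (limma adjusted p = 0.02876), and none of the other 5 genes did. This call was lost without any single CON ZT1 array, with limma adjusted p-values from 0.09522 to 0.1044, and without single arrays of other groups. Leaving out CON ZT19 replicate 1, so that only narrow arrays remain there, made Homer1, Bdnf, Cirbp and Rbm3 pass as well.

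Dusp4 fell in TSR mice on average over the 4 times by 0.18 ± 0.06 in the 20 arrays (limma adjusted p = 0.01026). At ZT1, where all TSR readings lay under all CON readings, the difference was -0.32 ± 0.11 with a limma adjusted p of 0.05907. The single-time differences at ZT7, ZT13 and ZT19 were -0.17 ± 0.10, -0.10 ± 0.11 and -0.12 ± 0.13. With 24 arrays the difference was -0.532 ± 0.149 at ZT1 and -0.205 ± 0.075 on average. Neither passed, with limma adjusted p-values of 0.7457 and 0.1581. Of 9 other phosphatases of the family tested, 3 rose and 3 fell on average in the 20 arrays, near the 33.5% and 22.8% of all genes. Dusp6, a cytoplasmic ERK phosphatase, rose at ZT7 by 0.65 ± 0.07 (limma adjusted p = 1.48e-06), while Dusp8 fell on average by 0.40 ± 0.04 and Dusp7 by 0.24 ± 0.04. The genes most like Dusp4 were Polr2m (r = 0.874), Lsm4 (r = 0.856), Ppp1r14a (r = 0.849) and Glo1 (r = 0.843).

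Bdnf was not shown to differ between conditions at any time in the 20 arrays. Its probe set 10474399 (gene on chromosome 2, 109674700 to 109727043) had a mean of 5.85, just over the filter at 5.84, and its highest values were on narrow arrays. At ZT1 Bdnf read 5.66, 5.91 and 6.18 in TSR mice, the last on a narrow array, against 5.87, 5.80 and 5.80 in CON mice. At ZT7 it read 5.61, 5.77 and 5.86 in TSR mice, against 5.67, 5.64 and 5.92 in CON mice. At ZT13 it read 5.90, 6.20 and 5.75 in TSR mice, the middle value on a narrow array, against 5.83, 5.55 and 5.55 in CON mice. At ZT19 it read 5.69, 5.66 and 5.86 in TSR mice, against 5.81, 6.65 and 6.22 in CON mice, the last 2 on narrow arrays. The 4 narrow arrays ran from 6.18 to 6.65 and stood above all the others. The 20-array differences were -0.04 ± 0.13, 0.00 ± 0.12, 0.19 ± 0.13 and -0.07 ± 0.17 from ZT1 to ZT19, and the 8 groups overlapped their neighbours in order throughout. With 24 arrays Bdnf fell at ZT19 by 0.49 ± 0.18 (limma adjusted p = 0.03559), a call that was lost without the narrow CON arrays.

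Of 9 tested neurotrophin pathway genes, 3 rose and 3 fell on average in the 20 arrays, near the 33.5% and 22.8% of all genes. Ngfr, the p75 neurotrophin receptor, rose at ZT7 by 1.10 ± 0.10 (limma adjusted p = 1.64e-07). Furin, a protease that can cleave the precursor of BDNF, fell on average by 0.27 ± 0.05, and Crtc1, a CREB co-activator, by 0.40 ± 0.04. The genes most like Bdnf were A830031A19Rik (r = 0.753), Gpr20 (r = 0.729), Wnt5b (r = 0.724) and Fes (r = 0.720). Of 12 tested waking-induced genes outside the 6, 5 rose and 2 fell at ZT7 in the 20 arrays, while 1 rose and 7 fell at ZT13, when Homer1 was at its highest in TSR mice. Of all genes tested 12.9% rose and 13.8% fell at ZT7, and 24% rose and 21.9% fell at ZT13. Sgk1, a kinase also driven by glucocorticoids, rose at ZT1 by 1.09 ± 0.11, at ZT7 by 0.81 ± 0.10 and at ZT19 by 0.83 ± 0.13. Per1, a clock gene, rose at ZT1 by 0.45 ± 0.09 and fell at ZT7 by 0.62 ± 0.08 and at ZT13 by 0.70 ± 0.09. Its signs at ZT1 and ZT7 were those of Cirbp and Rbm3 in the 20 arrays, and at ZT13 Rbm3 had the other sign there.

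**Figure D4:**
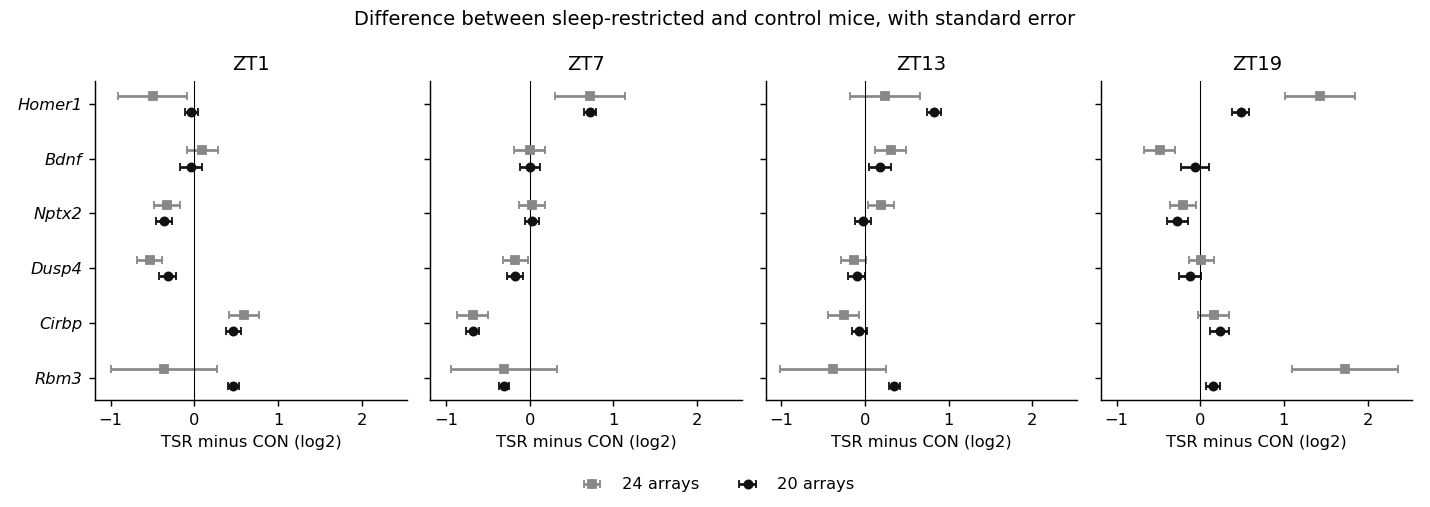
TSR minus CON difference (horizontal axis, log2) with its standard error for each gene (rows) at each zeitgeber time (panels), from 24 arrays (grey squares) and 20 arrays (black circles). The Rbm3 points fall on opposite sides of 0 at ZT1 and ZT13, and the ZT7 points coincide while their errors differ.

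Set against all genes, the counts of the 6 read as follows. With 20 arrays, 3 of the 6 were called at ZT1 where 10.1% of all genes tested were, 3 at ZT7 where 26.7% were, 2 at ZT13 where 45.9% were and 1 at ZT19 where 24.6% were. On average over the 4 times 4 of the 6 were called, with 56.3% of all genes. The difference varied with time for 3, with 29.7% of all genes, and time of day mattered for 4 in TSR, with 24.1%, and for 4 in CON, with 29.7%. With shares of this size over the whole table, a call on its own sets none of the 6 apart. With 24 arrays, 0 of the 6 were called at ZT1, ZT7, ZT13 and on average, where 0.0502%, 0.46%, 0.418% and 2.41% of all genes were, while 489, 660, 1633 and 1932 genes had an unadjusted p under 0.05. At ZT19 3 of the 6 were called with 55.4% of all genes. The test of a varying difference called 0 of the 6 with 0.318% of all genes, time of day in TSR 0 with 0.125%, and time of day in CON 1 with 0.301%.

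By their readings alone, the TSR and CON ranges of the 24 arrays stood apart for 3 of the 6 at ZT1 (Cirbp higher, Nptx2 and Dusp4 lower), where 15% of all genes did. At ZT7 they stood apart for 3 (Homer1 higher, Cirbp and Rbm3 lower), where 36.1% of all genes did. At ZT13 they stood apart for 0 of the 6, with 27.3% of all genes, and at ZT19 for 3 (Homer1, Cirbp and Rbm3, all higher), with 56.8%. In the 20 arrays, where groups of 1 or 2 stand apart more easily, 4, 3, 2 and 5 of the 6 stood apart from ZT1 to ZT19. The shares of all genes were 52.3%, 36.1%, 62.4% and 79.6%. The differences of Homer1 and Cirbp at ZT7 were larger in size than those of 98.4% and 98.0% of all genes tested.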

How the data were processed

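RNA of the mediobasal hypothalamus was measured on 24 one-colour Affymetrix arrays, 1 mouse each, in 8 groups of 3. Values were deposited by the authors as log2 probe-set signals, made with Affymetrix Expression Console per the submitters' processing notes; its version and summarization method are not stated there. How far they were normalized across arrays is not stated either. The condition came from each description, and the time and number from each title. In part of the table the decimal point stood in the wrong place. Of 853344 cells, 1786 (0.209%) were multiplied or divided by 10 where that brought them to the range of the table or the level of their probe set, 91 damaged cells were treated as missing, and 9 were missing as deposited. Moved cells in the 6 genes numbered 0. The step was checked on simulated shifts.

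Of 35556 probe sets, 21789 had exactly 1 symbol in the array annotation, 1621 had several and 12146 none. The probe set of highest mean stood for a gene, and those under the 40th percentile of means (5.84) were removed, which left 11963 genes. All 6 genes matched the table of assembly GRCm38.p6 by Entrez number. A model of 8 group means was fitted with limma 3.58.1 in R 4.3.3, with empirical Bayes moderation and a trend, to 24 arrays, and again to the 20 of interquartile range 2.5 or more. All tests were 2-sided, with Benjamini-Hochberg adjustment at 0.05 over all genes tested. The code of the fit was checked on simulated data with the spread of the 20 arrays. Narrow arrays were not simulated, so this check says nothing of their effect. The number of arrays limits the precision. The 6 genes, the gene lists and the alternatives were chosen with earlier results of these data known. Beside the 6, the text names up to 3 genes of each list with the smallest p in the 20-array average, and for each of the 6 the 4 genes of highest Pearson correlation. Tissue markers named only as above or below the filter, and Neurod6, are outside that rule. Alternatives were quantile normalization, no filter, no trend, the replicate block, missing in place of moved cells, the mean of a gene's probe sets, the 6 arrays of a time alone, and leaving out each array. Motifs were searched in RefSeq promoter windows with Python 3.11.15.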

Additional observations from a re-analysis of the deposited data

Results flagged for a closer look

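For 3 of the 6 genes the difference between TSR and CON was not the same at all times in the 20 arrays, by a limma F test of the difference between the 4 times. Homer1 gave an adjusted p of 5.5e-05, with differences of -0.04 at ZT1, 0.72 at ZT7, 0.83 at ZT13 and 0.48 at ZT19. Cirbp gave an adjusted p of 1.15e-05, with differences of 0.47 at ZT1, -0.68 at ZT7, -0.07 at ZT13 and 0.23 at ZT19. Rbm3 gave an adjusted p of 1.81e-05, with differences of 0.47 at ZT1, -0.30 at ZT7, 0.35 at ZT13 and 0.15 at ZT19. This test called 29.7% of all genes in the 20 arrays. With 24 arrays it called none of the 3 (limma adjusted p = 0.09691 for Cirbp), and 0.318% of all genes.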

How the results depend on the processing

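Leaving out the 4 narrow arrays moved most counts. It took the genes called from 6, 55, 50 and 6623 at ZT1, ZT7, ZT13 and ZT19 to 1203, 3193, 5490 and 2944, the average from 288 to 6739, the varying difference from 38 to 3549, and time of day from 15 to 2889 in TSR and from 36 to 3556 in CON. Of the 6 genes it called 3, 3, 2 and 1 at the 4 times, 4 on average, 3 for the varying difference and 4 for time of day in each condition. It turned the sign for Rbm3 (0.465 at ZT1, 0.351 at ZT13), Bdnf (-0.039 at ZT1, 0.021 on average), Nptx2 (-0.026 at ZT13) and Dusp4 (-0.121 at ZT19). Quantile normalization of these 20 arrays called 1497, 3820, 5970 and 3503 genes at the 4 times, 7147 on average, 4322 for the varying difference, and 3537 in TSR and 4279 in CON for time of day; of the 6 it called 4, 3, 2, 1, 4, 3, 4 and 4. There Rbm3 stood at 0.373 and 0.459, Bdnf at -0.037, -0.017 (ZT7) and 0.003, Nptx2 at -0.073 and Dusp4 at -0.149. At ZT1 this scaling gave 703 genes higher and 794 lower, against 832 and 371 without it. Quantile normalization of all 24 called 312 genes at ZT13, 1093 on average and 181 for time of day in CON, with Bdnf at -0.016 at ZT7 and Cirbp at -0.452 at ZT19. Without the filter, 19, 15 and 24 genes were called at ZT1, at ZT13 and for the varying difference; without the trend, 3 at ZT1, and 1 of the 6 for the varying difference. Neither called any of the 6 for time of day in CON (0, against 1). The mean of a gene's probe sets kept every direction and call of the 6. Fitted alone, the 6 arrays of a time called 0, 2113, 0 and 4 genes, and 3 of the 6 at ZT7 and 0 at ZT19. With decimals set to missing, 56 genes were called for time of day in CON.

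The median correlation of deviations was -0.005 over 84 same-numbered pairs of arrays (-0.857 to 0.871), against 0.002 over 168 others (-0.897 to 0.884). The narrow arrays were among these pairs, and no value without them is given. The medians therefore do not decide whether replicate numbers pair the mice. With the replicate block, 28 genes were called at ZT13.

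Leaving out 1 of the 24 arrays gave 1 to 9 genes at ZT1, 3 to 119 at ZT7, 7 to 415 at ZT13, 1 to 9333 at ZT19, 156 to 1295 on average, 13 to 8342 for the varying difference, 6 to 45 for time of day in TSR and 17 to 8395 in CON. Of the 6 it called 0 to 1 at ZT7, 0 to 3 at ZT19, 0 to 1 on average, 0 to 4 for the varying difference and 0 to 5 for time of day in CON. The highest counts over all genes at ZT19, for the varying difference and for time of day in CON came without CON ZT19 replicate 1, which leaves only narrow arrays in that group, and the lowest at ZT19 came without either narrow CON array. Member differences ran across 0 for Bdnf (-0.039 to 0.222 at ZT1, -0.054 to 0.092 at ZT7, -0.073 to 0.033 on average), Rbm3 (-0.799 to 0.465 at ZT1, -0.766 to 0.351 at ZT13), Nptx2 (-0.009 to 0.076 at ZT7, -0.026 to 0.342 at ZT13), Homer1 (-0.075 to 0.826 at ZT13), Dusp4 (-0.054 to 0.084 at ZT19) and Cirbp (-0.077 to 0.001 on average). Leaving out 1 of the 20 arrays, an alternative chosen after seeing the data, called 1 to 4 of the 6 at ZT1, and ran across 0 for Bdnf (-0.163 to 0.086 at ZT1, -0.054 to 0.092 at ZT7, -0.01 to 0.052 on average), Nptx2 (-0.009 to 0.076 at ZT7, -0.112 to 0.06 at ZT13) and Cirbp (-0.038 to 0.003 on average). The cause of these moves was not tested.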
